A study of Mus musculus with 6 samples.

Results

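The amino acid transporter genes of 7 solute carrier families (Slc1, Slc3, Slc6, Slc7, Slc36, Slc38 and Slc43) were examined in mGB2, a mouse glioblastoma line, with and without targeting of Bcat1. Members were the genes whose symbol is one of these family names followed by its number and nothing more, with at least 10 strand-matched read counts summed over the 6 libraries. Of 49585 listed genes, 61 had such a symbol, and 38 of these reached 10 counts. Of the 23 left out, 12 had 0 counts and 11 had fewer than 10. Symbols with a further letter, such as Slc6a20a and Slc6a20b, fell outside the rule. The Slc6 family also holds carriers of GABA, taurine, creatine and monoamines, which were kept because the rule goes by family.

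Messenger RNA was sequenced in 3 Bcat1-KO libraries and 3 Control libraries of the same line, whose labels describe the cells as glioblastoma stem cells. Both groups were untreated, were cultured adherently on plates with a matrix coat in DMEM:F12 with N2, B27, EGF and FGF, and had reached confluency at RNA isolation. The control is marked NT in the design text. The labels do not state how Bcat1 was targeted, whether the knockout line is 1 clone, or whether replicates were separate cultures. The p-values therefore measure only how far these samples spread, which may be technical. Bcat1 encodes the cytosolic aminotransferase that moves the amino group of leucine, isoleucine and valine to 2-oxoglutarate, giving glutamate.

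Mammalian cells cannot make leucine, isoleucine or valine, so these enter by carriers. In many tumour cells the light chain Slc7a5 joins the heavy chain Slc3a2 and brings in large neutral amino acids in exchange for glutamine, which has itself been taken up by sodium-coupled carriers such as Slc1a5 and the Slc38 family. In brain, astrocytes clear glutamate with Slc1a2 and Slc1a3 and release glutamine through Slc38a3, and tumour cells take up cystine for glutathione through Slc7a11 in exchange for glutamate.

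The libraries held 29543157 to 37800648 strand-matched counts. Values in CPM (read counts scaled to library size by the TMM method) serve to compare 1 gene between libraries. Values in TPM are the transcript abundances the authors deposited, corrected for gene length, and serve to compare genes. In a multidimensional scaling plot the first axis, with 93.5% of the variance, separated the groups, and the second, with 2.19%, set Bcat1-KO replicate 1 apart from replicates 2 and 3. The Bcat1 gene itself, on chromosome 6 (144993835 to 145076184, mm10), was still transcribed at 155, 176 and 173 CPM in the Bcat1-KO libraries, against 214, 223 and 232 CPM in the Control libraries. Log2 fold change was -0.41 (SE 0.07) at a Benjamini-Hochberg adjusted p of 0.000355 in edgeR's quasi-likelihood test. Whole-gene counts cannot tell an edited exon from an intact one, so this is a weak check of the labels.

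Markers of the labelled cell type were present but differed between the groups. Of 12 neural stem and glioblastoma stem cell markers, Fut4 had 0 counts in every library and Prom1 in every Control library. Of the 11 tested, 9 were higher in Bcat1-KO, as were 32.0% of all tested genes. The summed level of the 12 was 2530 to 2738 CPM in Bcat1-KO and 1554 to 1625 CPM in Control. The 9 fibroblast and mural cell markers summed to 15.6 to 17.6 CPM in Bcat1-KO and 84.7 to 90.5 CPM in Control, with 0 of the 9 at 0 in all libraries. All 5 of the 5 tested were lower in the knockout, as were 30.3% of all tested genes. The markers too low to test did not all lie that way: Dcn had 45 counts over the Bcat1-KO libraries and 7 over the Control libraries, Lum had 6 and 2, Col1a2 had 8 and 5, and Rgs5 had 0 and 5. The 8 microglia markers summed to 2.58 to 3.77 CPM in Bcat1-KO and 2.58 to 4.26 CPM in Control, almost all of it Cd68, with P2ry12 and Itgam at 0. The 7 endothelial markers summed to 0.305 to 0.780 CPM in Bcat1-KO and 0.826 to 1.06 CPM in Control, with Cldn5 at 0. In a bulk sample fewer cells of a type and less RNA per cell cannot be told apart, and the part of any cell mixture in the transporter results was not tested.

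Of the 38 transporter genes, 32 passed the filter on low counts and were tested. The 32 tested genes split into 14 higher and 9 lower in Bcat1-KO, with 9 that did not pass (edgeR, adjusted p under 0.05). The called share, 71.9%, stands beside a background of 62.3% over all 14020 tested genes, of which 32.0% were higher and 30.3% lower. Among the transporters 43.8% were higher and 28.1% lower. Their median log2 fold change was 0.14, against 0.01 over all tested genes. For 24 of the 32 the libraries of the groups did not overlap, which was so for 67.7% of all tested genes. By more than 2-fold, 6 genes were higher and 5 lower, and 12 called genes changed by less. The share of all tested genes past that fold was not counted, so the 2-fold counts have no background beside them. At any fold, the count of genes called higher was 9 without Bcat1-KO replicate 3. Without Bcat1-KO replicate 1, which lay apart, 13 genes were higher and 10 lower. Slc6a19 passed the filter through the Control libraries alone, and it is counted among the 9 lower genes and the 5 lower by more than 2-fold.

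**Figure D1:**
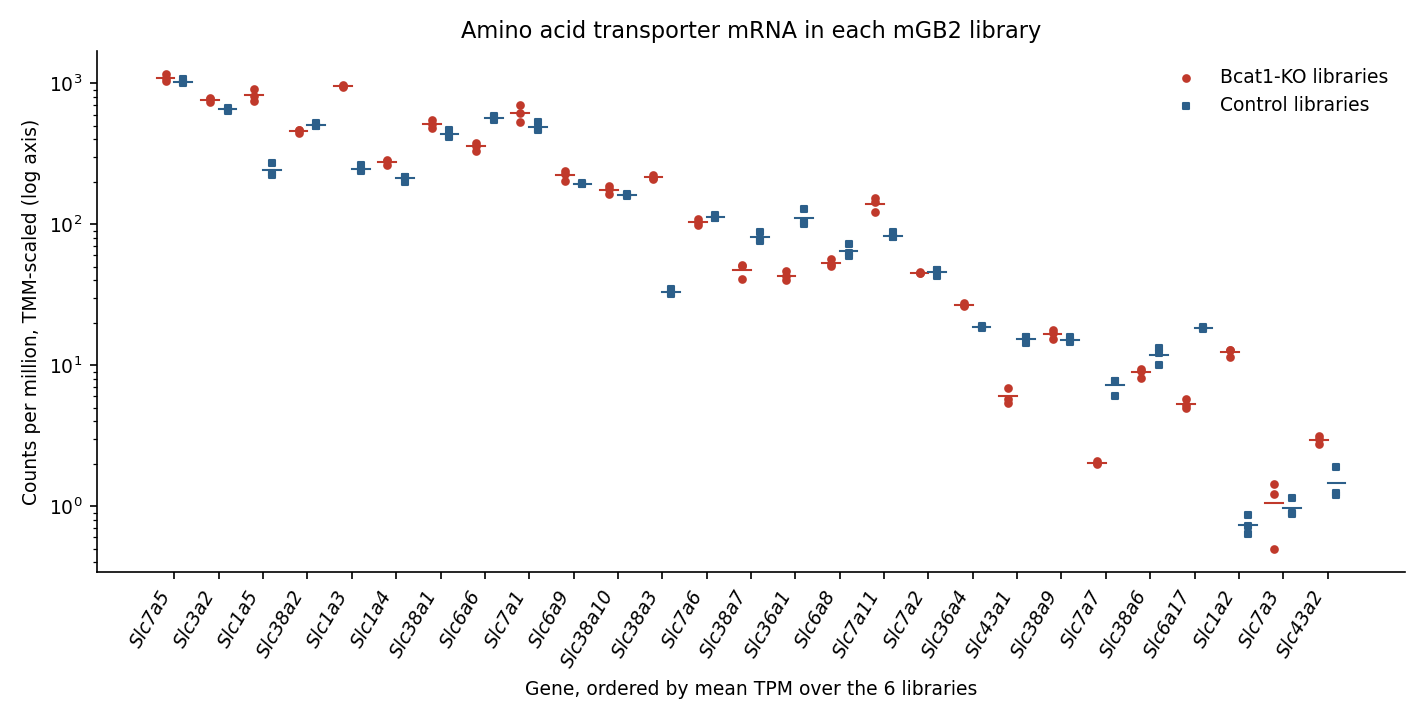
Transporter mRNA in each library, in TMM-scaled CPM on a log axis, for tested genes described here that averaged at least a log2 CPM of 0, ordered by mean TPM. Circles are the 3 Bcat1-KO libraries, squares the 3 Control libraries and short lines the group means, and the widest gaps between groups are at Slc1a2, Slc38a3 and Slc1a3.

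As a sum, transporter mRNA stood higher in the knockout, while 9 of the 32 tested genes were lower. Its summed TPM was 4186, 4440 and 4549 in the Bcat1-KO libraries, against 3310, 3233 and 3355 in the Control libraries, a ratio of means of 1.33. The groups did not overlap, and the sum was not tested. The widest differences in mean TPM were those of Slc1a5, at 647 in Bcat1-KO and 184 in Control, and Slc1a3, at 369 in Bcat1-KO and 91.5 in Control. A few genes made most of the sum. By mean TPM the order in Bcat1-KO was Slc7a5 (970), Slc3a2 (709), Slc1a5 (647), Slc1a3 (369), Slc38a2 (325) and Slc1a4 (231). In Control it was Slc7a5 (876), Slc3a2 (583), Slc38a2 (347), Slc6a6 (212), Slc1a5 (184) and Slc1a4 (170). The places of Slc1a5 and Slc1a4 in Control, 184 ± 21.4 and 170 ± 6.51 TPM (SD, n = 3), lay within the spread of the libraries. So did those of Slc3a2 and Slc1a5 in Bcat1-KO, 709 ± 24.2 and 647 ± 72.2 TPM (SD, n = 3). Slc1a3, the fourth in Bcat1-KO, was the tenth in Control at 91.5 TPM. A mean of 100 TPM was reached by 11 members in Bcat1-KO and 9 in Control.

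The glutamate carriers showed large changes. Both tested glutamate carriers were higher in Bcat1-KO, as were 32.0% of all tested genes. The summed TPM of both, with Slc1a7 included, was 372 ± 11.4 in Bcat1-KO and 91.9 ± 3.70 in Control (SD, n = 3 each). Nearly all of that was Slc1a3.

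Slc1a3 (ENSMUSG00000005360.14, chromosome 15 from 8634124 to 8710764), which encodes the sodium-coupled glutamate and aspartate carrier GLAST of radial glia and astrocytes, had 946, 960 and 976 CPM in the Bcat1-KO libraries, against 240, 262 and 241 CPM in the Control libraries. The groups were far apart, with little spread in either. This amounted to a log2 fold change of 1.96 ± 0.07 SE (edgeR adjusted p = 6.41e-10), a 3.88-fold difference. Slc1a2 (ENSMUSG00000005089.15, chromosome 2 from 102658659 to 102790784), the GLT1 carrier that takes up most synaptic glutamate in adult forebrain, was low in both groups. Its libraries had 12.9, 11.4 and 12.8 CPM in Bcat1-KO, against 0.859, 0.633 and 0.723 CPM in Control. The log2 fold change of 4.06 ± 0.16 SE (edgeR adjusted p = 1.20e-09) was the highest among the tested members, yet its level in Bcat1-KO, 3.08 TPM, was far under the 369 TPM of Slc1a3. Cd44 was among the 10 tested genes nearest to Slc1a2, and 9 of those 10 were higher in Bcat1-KO (median log2 fold change 0.43). Slc1a7, a glutamate carrier best known from retina, stayed at or under 0.379 CPM in every library and was not tested. It had 5 counts over the Bcat1-KO libraries and 29 over the Control libraries, the opposite direction to Slc1a2 and Slc1a3. It was called lower in the fits without the low-count filter and without Control replicate 1.

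The 2 neutral exchangers of the Slc1 family were both higher in Bcat1-KO, as were 32.0% of all tested genes. Slc1a5 (ENSMUSG00000001918.17, chromosome 7 from 16781340 to 16798274) encodes ASCT2, which exchanges glutamine and other small neutral amino acids. Its level was 751, 907 and 811 CPM in the Bcat1-KO libraries, against 274, 230 and 225 CPM in the Control libraries, with no overlap. In log2 terms the difference was 1.76 ± 0.10 SE (edgeR adjusted p = 2.37e-08). Slc1a5 lies in a stretch of chromosome 7 where neighbouring genes were also higher: 8 of the 10 nearest tested genes were higher and 1 lower, and their log2 fold changes ran between -0.61 and 3.93 with a median of 2.37. The median of the 51 tested genes centred on it, itself included, was 0.25, and with that local median subtracted the log2 fold change was 1.51. The part of this stretch in the Slc1a5 difference was not tested. Slc1a4, the serine, alanine and cysteine exchanger ASCT1, had 264, 281 and 284 CPM in Bcat1-KO, against 201, 217 and 217 CPM in Control. That was a log2 fold change of 0.39 ± 0.07 SE (edgeR adjusted p = 0.000347), also without overlap.

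The leucine carrier pair Slc7a5 and Slc3a2 was the most abundant of all by mean TPM in both groups. In Bcat1-KO replicate 2, however, Slc1a5 at 721 TPM stood above Slc3a2 at 689 TPM. Of the pair only Slc3a2 passed, by a small fold. Slc7a5 (ENSMUSG00000040010.10, chromosome 8 from 121881150 to 121907694), the LAT1 light chain, had 1094, 1045 and 1155 CPM in Bcat1-KO, against 1003, 1019 and 1065 CPM in Control. The groups overlapped, and the log2 fold change of 0.09 (SE 0.08) did not pass (adjusted p = 0.297, edgeR). Its chromosome stood out: of 779 tested genes on chromosome 8, 61.1% were lower and 10.3% higher in Bcat1-KO (median log2 fold change -0.37). With the median of the 51 genes centred on it subtracted, Slc7a5 had a log2 fold change of 0.57 and passed. Slc3a2 (ENSMUSG00000010095.13, chromosome 19 from 8706882 to 8723369), the heavy chain 4F2hc that carries the light chains to the plasma membrane, had 772, 733 and 787 CPM in Bcat1-KO, against 639, 670 and 648 CPM in Control. It was higher in every Bcat1-KO library, with a log2 fold change of 0.23 ± 0.07 SE (edgeR adjusted p = 0.0138). That call was lost without Bcat1-KO replicate 3, without Control replicate 3, and with the local median subtracted.

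Slc3a1, the other heavy chain (rBAT), which pairs with the cystine light chain of kidney and gut, was near the limit of detection. It had 0.0554, 0.0520 and 0.303 CPM in Bcat1-KO, against 0.223, 0.362 and 0.379 CPM in Control, and the fold change did not pass (log2 fold change -1.22 ± 0.59 SE, edgeR adjusted p = 0.0897). It passed as lower without Bcat1-KO replicate 3, at -2.51, and with all 6 libraries in limma-voom and with the local median subtracted. Slc3a1 overlaps Prepl on the opposite strand, which had 447 to 463 reads in its span per Bcat1-KO library and 614 to 726 per Control library, so counts taken there without strand would be mostly reads from the strand of Prepl.

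The light chains that share Slc3a2 did not move together. Slc7a11 (ENSMUSG00000027737.10, chromosome 3 from 49892526 to 50443614), the cystine and glutamate exchanger xCT, had 122, 145 and 154 CPM in Bcat1-KO, against 81.2, 80.7 and 87.6 CPM in Control. It was higher without overlap, with a log2 fold change of 0.75 ± 0.09 SE (edgeR adjusted p = 1.37e-05). Slc7a7 (ENSMUSG00000000958.9, chromosome 14 from 54369442 to 54417780), which exchanges cationic for neutral amino acids, had 2.08, 2.0 and 2.04 CPM in Bcat1-KO, against 6.07, 7.68 and 7.78 CPM in Control. That was lower in every Bcat1-KO library (log2 fold change -1.81 ± 0.15 SE, edgeR adjusted p = 9.31e-07). Its neighbourhood was lower as well: 9 of the 10 nearest tested genes were lower (median log2 fold change -0.62), and 55.8% of tested genes on chromosome 14 were lower. The log2 fold change of Slc7a7 less the median of the 51 genes centred on it was -1.35.

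Slc7a6, a close relative of Slc7a7 with the same kind of exchange, had 109, 104 and 98.6 CPM in Bcat1-KO, against 116, 111 and 111 CPM in Control. The groups did not overlap, but the log2 fold change of -0.12 (SE 0.06) did not pass (adjusted p = 0.112, edgeR). It passed as lower without Bcat1-KO replicate 1 (-0.18), and as higher with the local median on chromosome 8 subtracted (0.25). Slc7a8, the LAT2 light chain, was not tested. It had 1 count over the Bcat1-KO libraries and 12 over the Control libraries, a ratio of Control over Bcat1-KO of 14.2 (exact 95% interval 2.10 to 607, counting error only).

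By TPM, Slc7a5 made up 89.8% ± 0.532 of light chain mRNA in Bcat1-KO and 89.4% ± 0.300 in Control (SD, n = 3 each), and Slc7a11 made up 3.06% ± 0.345 in Bcat1-KO and 1.92% ± 0.0388 in Control. Summed light chain TPM over Slc3a2 TPM was 1.52 ± 0.0230 in Bcat1-KO and 1.68 ± 0.0642 in Control. Thus the heavy chain mRNA stood higher relative to its light chains in all 3 Bcat1-KO libraries, whose ratios of 1.5, 1.52 and 1.55 lay under the Control ratios of 1.68, 1.62 and 1.75.

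Slc7a11 and Slc7a7 were the 2 transporter genes, of 26 with a RefSeq promoter window, whose 250 bases before a start site held the letters TGATGNAA, the core of the element that ATF4 binds with C/EBP partners in amino acid response genes. On either strand the letters were in such windows of 3.91% of 27025 genes. The 26 genes had more windows per gene than all genes, and by window the letters were in 3 of 38, against 3.45% of 32851. The 150 bases before each start are shown because these genes changed in opposite directions, with the matches in capitals (GRCm38.p6, the build called mm10, minus strand, chr3:50443614-50443763 for Slc7a11 and chr14:54417945-54418094 for Slc7a7).
Slc7a11: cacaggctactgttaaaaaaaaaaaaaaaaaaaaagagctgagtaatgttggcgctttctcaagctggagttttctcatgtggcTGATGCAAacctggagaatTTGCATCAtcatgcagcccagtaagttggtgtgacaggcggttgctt
Slc7a7: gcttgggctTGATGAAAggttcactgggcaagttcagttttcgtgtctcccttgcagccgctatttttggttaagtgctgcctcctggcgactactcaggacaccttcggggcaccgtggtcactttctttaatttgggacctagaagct
The Slc7a11 window held a pair of matches facing each other, the first beginning 66 bases before the start and the other, on the opposite strand, 47 bases before it. In Slc7a7 the match in capitals begins 141 bases before the start of the first of 5 annotated windows. Slc7a7 holds a further match, TGATGCAA, that begins 243 bases before the start of the second window, at the last base of the stretch shown. A match describes letters in the window and not binding. Genes without a RefSeq promoter window, which were therefore not searched, included Slc1a5, Slc6a2, Slc6a6, Slc6a8, Slc7a2, Slc7a3, Slc7a4, Slc7a5, Slc36a2, Slc38a1 and Slc38a3.

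In the cationic branch of the Slc7 family, 2 of 4 tested genes were higher and 0 lower, beside 32.0% higher and 30.3% lower of all tested genes. Slc7a1, the main arginine and lysine carrier CAT1, had 528, 619 and 702 CPM in Bcat1-KO, against 468, 477 and 534 CPM in Control. The groups overlapped in part and the log2 fold change was 0.32 ± 0.10 SE (edgeR adjusted p = 0.0163). That call was lost without Bcat1-KO replicate 3, Control replicate 1 or Control replicate 2. Slc7a4 was higher at a low level, 0.633 to 0.754 CPM in Bcat1-KO and 0.275 to 0.542 CPM in Control, and lost its call on leaving out any 1 library other than Control replicate 2. Slc7a2 (CAT2), at 44.8 to 46.1 CPM in Bcat1-KO and 42.6 to 47.5 CPM in Control, and Slc7a3 (CAT3), at 0.499 to 1.43 CPM in Bcat1-KO and 0.874 to 1.14 CPM in Control, did not pass.

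Of the Slc38 carriers, Slc38a3 (ENSMUSG00000010064.15, chromosome 9 from 107650634 to 107669530) changed the most. It encodes SNAT3, a system N carrier that moves glutamine in either direction and marks astrocytes in brain. Its level was 225, 212 and 209 CPM in Bcat1-KO, against 34.6, 32.3 and 32.2 CPM in Control. Each library lay close to its own group, and the log2 fold change was 2.71 ± 0.07 SE (edgeR adjusted p = 2.95e-11), a 6.53-fold difference. Around it, the 10 nearest tested genes held 3 higher and 5 lower ones, and their median was -0.21 on the log2 scale.

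Of the system A carriers, which take up glutamine and other small neutral amino acids with sodium, Slc38a1 passed by a small fold and Slc38a2 did not pass. Slc38a1 (SNAT1) had 483, 517 and 548 CPM in Bcat1-KO, against 419, 420 and 463 CPM in Control, a log2 fold change of 0.25 ± 0.08 SE (edgeR adjusted p = 0.0141). Its call was lost without Bcat1-KO replicate 3, Control replicate 1 or Control replicate 2, and with the local median subtracted. Slc38a2 (SNAT2), a gene known to be induced by amino acid shortage, had 443, 470 and 465 CPM in Bcat1-KO, against 500, 497 and 526 CPM in Control. The Bcat1-KO libraries all lay below the Control libraries, but the log2 fold change of -0.15 (SE 0.07) did not pass (adjusted p = 0.0794, edgeR), whereas it passed as lower with upper quartile scaling, with DESeq2 and with the local median subtracted. Per length, Slc1a5 stood above Slc38a2 in Bcat1-KO and below it in Control: the ratio of their TPM was 1.98 ± 0.138 in Bcat1-KO and 0.531 ± 0.0677 in Control.

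Of the 4 other tested Slc38 genes, 2 were lower and 0 higher, beside 30.3% lower and 32.0% higher of all tested genes. Slc38a7 (SNAT7, ENSMUSG00000036534.6, chromosome 8 from 95835920 to 95853539), which exports glutamine from lysosomes, had 40.7, 51 and 50.9 CPM in Bcat1-KO, against 88.5, 77.6 and 76.2 CPM in Control. The log2 difference came to -0.76 ± 0.09 SE (edgeR adjusted p = 2.65e-05), and -0.31 with the local median on chromosome 8 subtracted. Slc38a6 had 9.11, 9.41 and 8.09 CPM in Bcat1-KO, against 13.3, 12.3 and 9.95 CPM in Control, a log2 fold change of -0.42 ± 0.13 SE (edgeR adjusted p = 0.0135). The Slc38a6 call was lost without Control replicate 1 or 2 and in the fit on log2(TPM + 1). Slc38a9, the lysosomal carrier that reports arginine to mTORC1, had 17, 17.9 and 15.4 CPM in Bcat1-KO, against 15.8, 15.0 and 14.6 CPM in Control, and did not pass (log2 fold change 0.14 ± 0.09 SE, edgeR adjusted p = 0.203). Slc38a10 did not pass either, at 164 to 186 CPM in Bcat1-KO and 158 to 165 CPM in Control.

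The proton-coupled Slc36 carriers went in opposite directions. Slc36a1 (PAT1, ENSMUSG00000020261.15, chromosome 11 from 55204350 to 55236330), which lets small neutral amino acids out of lysosomes, had 46.7, 42.7 and 40.3 CPM in Bcat1-KO, against 127, 99.6 and 103 CPM in Control. It was lower in every Bcat1-KO library, with a log2 fold change of -1.35 ± 0.10 SE (edgeR adjusted p = 2.30e-07). Slc36a4, a carrier known for proline and tryptophan, had 27.4, 26.6 and 26.2 CPM in Bcat1-KO, against 18.3, 18.6 and 19.0 CPM in Control. It was higher, with a log2 fold change of 0.52 ± 0.07 SE (edgeR adjusted p = 8.77e-05). Slc36a2 was not tested.

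The facilitative Slc43 carriers, which let branched-chain and other large neutral amino acids through without ions, also split. Slc43a1 (LAT3, ENSMUSG00000027075.16, chromosome 2 from 84838850 to 84863594) had 6.93, 5.77 and 5.37 CPM in Bcat1-KO, against 15.9, 15.8 and 14.5 CPM in Control. It was lower by a log2 fold change of -1.35 ± 0.12 SE (edgeR adjusted p = 1.47e-06). Slc43a2 (LAT4) had 2.74, 3.12 and 3.0 CPM in Bcat1-KO, against 1.91, 1.21 and 1.24 CPM in Control. It was higher by a log2 fold change of 1.02 ± 0.21 SE (edgeR adjusted p = 0.00106). Their summed level was 4.41 ± 0.342 TPM in Bcat1-KO and 8.95 ± 0.522 TPM in Control, a small share beside Slc7a5.

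The E-box letters CACGTG read the same on both strands and are bound by basic helix-loop-helix factors such as MYC and the lysosomal regulator TFEB. They were in the 250 bases before a start of 5 of the 26 transporter genes with a window, against 6.86% of all 27025 genes. Of the 5, 3 were tested, Slc36a1, Slc38a7 and Slc43a1, while Slc1a7 and Slc6a16 were too low to test. The tested ones were lower in Bcat1-KO, as were 30.3% of all tested genes, and no link between the letters and the direction was tested. The sequences before the starts of the lysosomal carriers are shown with the letters in capitals (GRCm38.p6, chr11:55204190-55204339 on the plus strand for Slc36a1 and chr8:95853508-95853537 on the minus strand for Slc38a7).
Slc36a1: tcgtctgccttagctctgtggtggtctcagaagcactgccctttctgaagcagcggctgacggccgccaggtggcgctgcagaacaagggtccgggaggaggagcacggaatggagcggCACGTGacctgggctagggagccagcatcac
Slc38a7: gtgattcaggctCACGTGttacttgagtcg
The E-box begins 31 bases before the start in Slc36a1, 34 bases in Slc38a7 and 64 bases in Slc43a1. A further element searched, the core TGACNNNGC of the antioxidant response element, was on either strand in 7 of the 26 genes, against 11.5% of all genes. These 7 were Slc38a2, Slc6a9, Slc7a1, Slc7a6, Slc43a1, Slc6a13 and Slc6a16. Slc43a1 and Slc6a16 held both sets of letters, at places that did not overlap. The 26 genes had more windows per gene than all genes. By window the E-box was in 5 of 38, against 6.02% of 32851, and the core TGACNNNGC in 8 of 38, against 10.2%. Such counts describe letters and draw nothing about the factors.

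**Figure D2:**
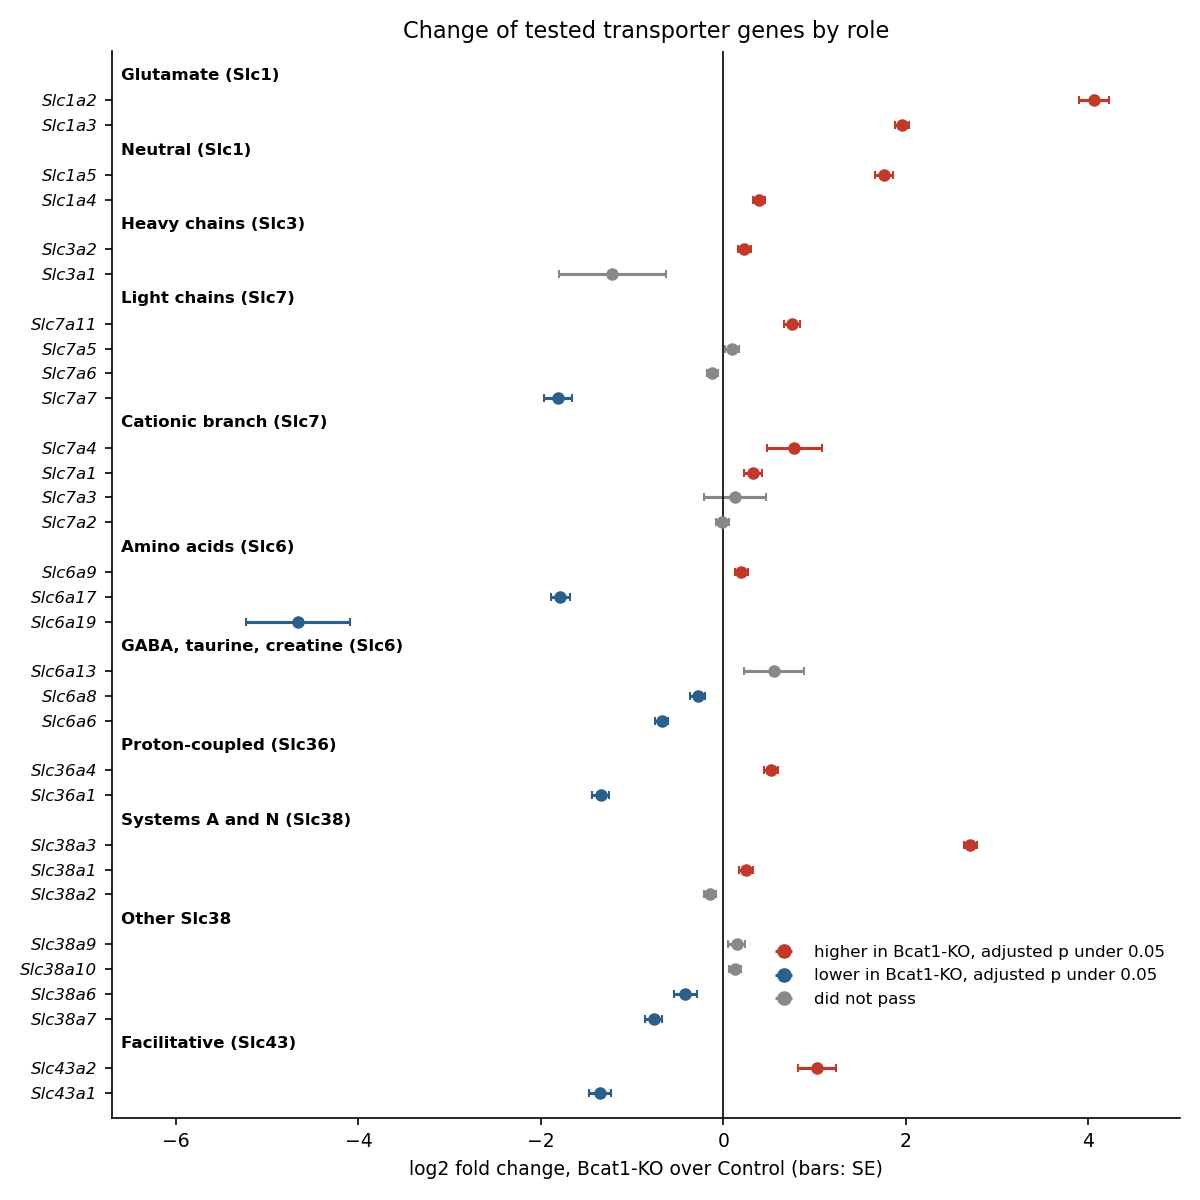
The log2 fold change of Bcat1-KO over Control for the tested transporter genes described here, grouped by role, with bars of 1 SE and colours for genes higher, lower or not passing at an adjusted p of 0.05 in edgeR. Every tested Slc1 gene lies to the right of 0, whereas the other families hold genes on both sides.

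Among the Slc6 carriers of amino acids, 1 of 3 tested genes was higher and 2 were lower, beside 32.0% higher and 30.3% lower of all tested genes. Of the lower 2, Slc6a19 passed the low-count filter through the Control libraries alone. Slc6a17 (ENSMUSG00000027894.14, chromosome 3 from 107467543 to 107518018), a carrier of neutral amino acids into synaptic vesicles, had 5.71, 5.25 and 4.98 CPM in Bcat1-KO, against 18.6, 18.4 and 18 CPM in Control. The fitted log2 fold change stood at -1.79 ± 0.10 SE (edgeR adjusted p = 3.10e-08), with no overlap. Slc6a19, the neutral amino acid carrier of gut and kidney, had 2 counts over the Bcat1-KO libraries and 51 over the Control libraries, a ratio of Control over Bcat1-KO of 30.2 (exact 95% interval 7.94 to 256, counting error only). Slc6a9, the glycine carrier GLYT1, had 202, 226 and 240 CPM in Bcat1-KO, against 195, 194 and 194 CPM in Control. Its log2 fold change of 0.20 ± 0.07 SE passed (edgeR adjusted p = 0.0362). That call was lost on leaving out any 1 library other than Bcat1-KO replicate 1.

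Among the Slc6 carriers of taurine and creatine, both tested genes were lower, as were 30.3% of all tested genes. Slc6a6 (ENSMUSG00000030096.8, chromosome 6 from 91684053 to 91759066), the taurine carrier that serves cell volume control, had 376, 333 and 360 CPM in Bcat1-KO, against 577, 548 and 582 CPM in Control. It was the most abundant gene that fell (log2 fold change -0.68 ± 0.07 SE, edgeR adjusted p = 7.60e-06). Slc6a8, the creatine carrier, had 56.6, 52.3 and 50.9 CPM in Bcat1-KO, against 72.6, 59.6 and 62.0 CPM in Control. It was lower by a log2 fold change of -0.28 ± 0.08 SE (edgeR adjusted p = 0.0114), a call lost in the fit on log2(TPM + 1). Slc6a13, a GABA carrier, did not pass at 0.495 to 0.637 CPM in Bcat1-KO and 0.275 to 0.541 CPM in Control. The monoamine carriers Slc6a2 and Slc6a4 were too low to test, as was Slc6a16, with 12 counts in Bcat1-KO and 3 in Control (ratio of Bcat1-KO over Control 3.38, exact 95% interval 0.912 to 18.7).

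**Figure D3:**
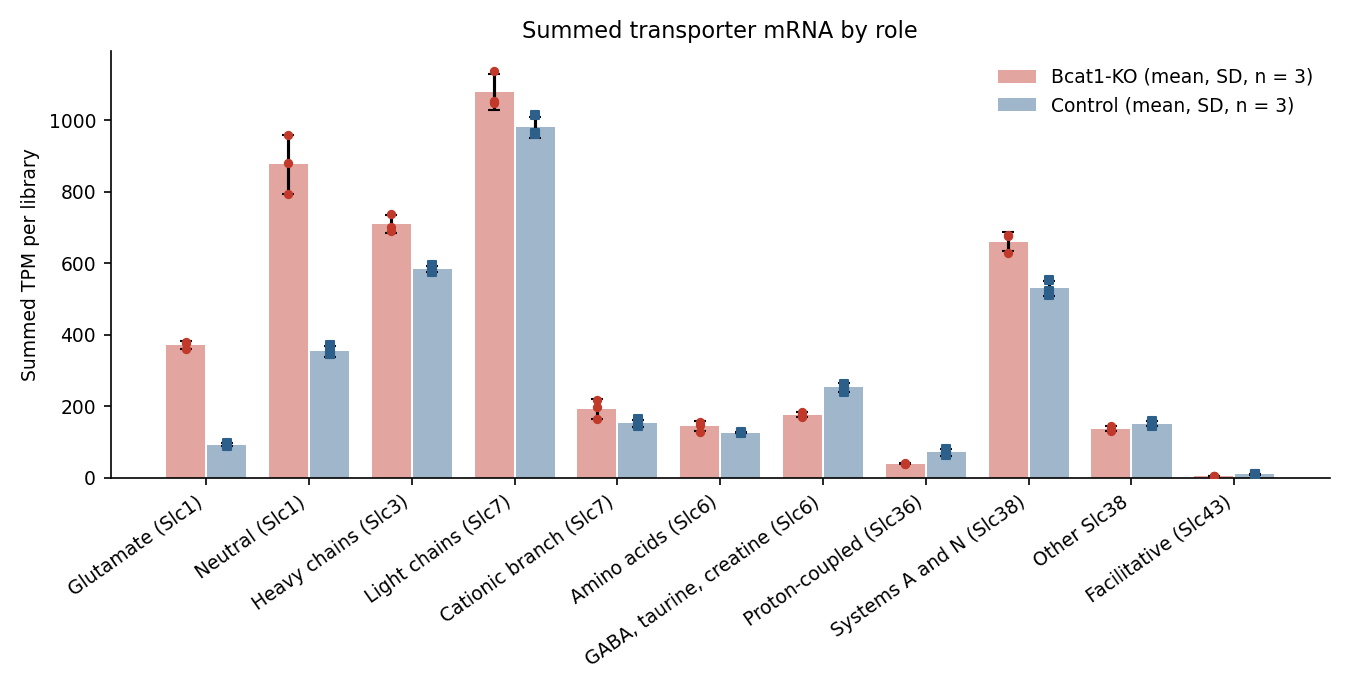
Summed TPM of the transporter genes of each role, with bars for the group means of the 3 Bcat1-KO and 3 Control libraries, error bars of 1 SD and points for single libraries. The Slc1 glutamate carriers sum to 372 TPM in Bcat1-KO and 91.9 in Control, and the GABA, taurine and creatine carriers to 177 TPM in Bcat1-KO and 253 in Control.

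Grouped by substrate rather than by family, carriers of leucine and of glutamine were called about as often as all tested genes, of which 62.3% were called, 32.0% higher and 30.3% lower. Of 13 listed genes for carriers of leucine, isoleucine or valine and their heavy chain, 10 were tested: 3 were higher, 4 lower and 3 did not pass, and the median log2 fold change was -0.01 against 0.01 over all tested genes. The higher ones were Slc3a2, Slc43a2 and Slc36a4, of which Slc3a2 is a heavy chain and Slc36a4 is known for other substrates. The lower ones were Slc7a7, Slc43a1, Slc6a17 and Slc6a19, the last of which passed the low-count filter through the Control libraries alone. The summed mRNA of the leucine carrier list was 1781 ± 70.9 TPM in Bcat1-KO and 1573 ± 26.8 TPM in Control, or 40.6% of the transporter total in Bcat1-KO and 47.7% in Control.

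Of 12 listed glutamine carriers, 9 were tested: 3 were higher, 3 lower and 3 did not pass (median log2 fold change -0.12, against 0.01 over all tested genes). The higher ones, Slc1a5, Slc38a3 and Slc38a1, were abundant, whereas 2 of the 3 lower ones, Slc7a7 and Slc6a19, were rare. Of these, Slc6a19 passed the low-count filter through the Control libraries alone. The summed mRNA of the glutamine carrier list was 2391 ± 112 TPM in Bcat1-KO and 1736 ± 47.3 TPM in Control. Slc7a5, Slc7a6, Slc7a7, Slc7a8, Slc6a14 and Slc6a19 are on both lists. The proton-coupled carriers summed to 38.6 ± 1.55 TPM in Bcat1-KO and 70.7 ± 8.91 TPM in Control.

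The position of the genes was set beside their change because whole stretches moved in these libraries. The 32 tested transporters lay on 17 chromosomes. On chromosome 8, Slc7a5, Slc7a6 and Slc7a2 did not pass and Slc38a7 was lower, while most other genes there were lower. With the median of the 51 tested genes centred on each gene subtracted, 13 transporter genes were higher and 11 lower. That window includes the gene itself and is cut short at chromosome ends. Under that setting the calls of Slc3a2, Slc38a1, Slc7a1, Slc6a9 and Slc7a4 were lost, and those of Slc7a5, Slc7a2, Slc7a6, Slc38a10, Slc38a2 and Slc3a1 were gained. Slc1a2, Slc38a3 and Slc1a3, which had large changes, differed from their local median by at least 1.78 on the log2 scale in their own direction. The part of chromosome-wide shifts in single transporter genes was not tested.

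**Figure D4:**
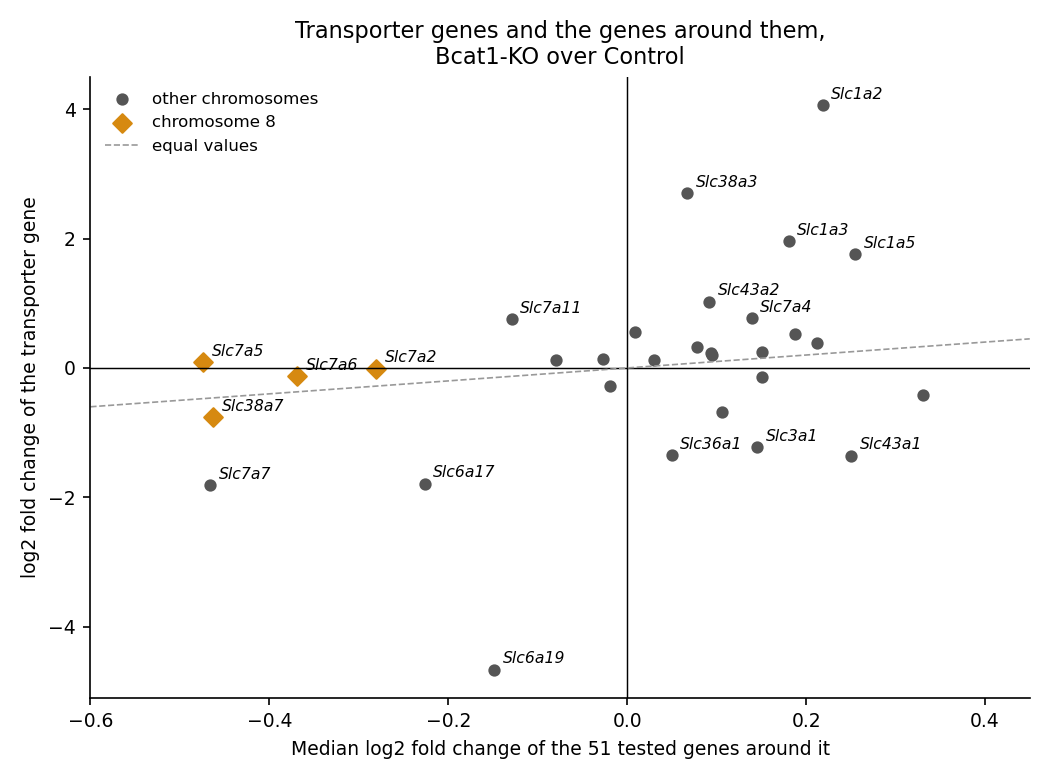
The log2 fold change of the tested transporter genes described here (vertical axis) against the median of the 51 tested genes centred on each (horizontal axis). Both are Bcat1-KO over Control, with the genes of chromosome 8 as diamonds and a dashed line where the values are equal. The medians lie between -0.47 and 0.33, and Slc7a5, Slc7a6 and Slc7a2 lie above the line while their medians are below 0.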

How the data were processed

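Stranded mRNA libraries were made from 3 Bcat1-KO and 3 Control samples of mGB2, per the labels' protocols. The submitters' processing notes name STAR 2.5.3a, featureCounts and mm10. Which annotation release was used is not given in these sources. Deposited counts are raw reads per gene, in 1 column that ignores strand and 1 column for each strand, per the file headers. Between 96.4% and 96.5% of stranded reads lay on the reverse strand, and those counts were used. The authors' deposited TPM has the same sum in each library.

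The low-count filter of edgeR 4.0.16 kept 14020 genes, and 0.0511% of counts lay outside them. Counts were TMM-scaled and compared by the quasi-likelihood test without covariates, with Benjamini-Hochberg adjustment over all tested genes at 0.05. The common biological coefficient of variation was 8.26%. With 3 counts a library shows 0.0794 to 0.102 CPM. Exact intervals cover counting error only. The test was checked on simulated counts. Replicates differed beyond counting noise (chi-square per gene 3.96 to 33.0). The highest values, 31.5 and 33.0, were those of Bcat1-KO replicate 1 with replicates 2 and 3, which gave 12.6 with each other. All 6 libraries were used.

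The members and lists were chosen with earlier results of these data known, and are no independent support. Named with full values were the heavy chains, the leucine and glutamine carriers averaging a log2 CPM of 0 or more, up to 8 higher and 8 lower genes with the largest changes among called genes without overlap, and the 6 most abundant. Other members are given by ranges, and an item that the rule takes is not reported here. Promoter windows are RefSeq's for GRCm38.p6. Alternatives were 2 other scalings, no low-count filter, DESeq2 1.42.0, limma 3.58.1 (voom, and trend on log2 of TPM + 1), unstranded counts, a 1.5-fold threshold, a replicate block, a length offset, block and offset together, library sizes without mitochondrial and the 10 top genes, the local median of 51 genes removed, and leaving out each library. R 4.3.3 and Python 3.11.15 were used.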

Additional observations from a re-analysis of the deposited data

Results flagged for a closer look

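Reads on the forward strand, which a stranded library should leave almost empty and which the comparison did not use, were looked at after the data were seen. Across 4891 genes with enough forward reads, edgeR (quasi-likelihood, Benjamini-Hochberg) found more of them in Bcat1-KO over a pair of transporter genes that averaged at least 1 forward CPM in Bcat1-KO, have no annotated gene on the opposite strand and had a higher forward share in every Bcat1-KO library. Slc43a1 had 53, 59 and 55 forward reads in the Bcat1-KO libraries, against 25, 21 and 26 in the Control libraries. In log2 terms this was 0.98 ± 0.24 SE (edgeR adjusted p = 0.00290), higher in 3 of 3 Bcat1-KO libraries, whereas its sense reads were lower. Forward reads made 17.5% to 22.0% of its stranded reads in Bcat1-KO and 3.84% to 5.83% in Control. Slc38a1 had 114, 100 and 110 forward reads in Bcat1-KO, against 42, 47 and 36 in Control. In log2 terms this was 1.16 ± 0.19 SE (edgeR adjusted p = 5.10e-05), and forward reads made 0.501% to 0.650% of its stranded reads in Bcat1-KO and 0.267% to 0.336% in Control. Below 1 CPM, Slc1a5 had 21, 40 and 24 forward reads in Bcat1-KO, against 5, 4 and 5 in Control (log2 fold change 2.34 ± 0.40 SE, edgeR adjusted p = 0.000101), at 0.0774% to 0.115% of its stranded reads in Bcat1-KO and 0.0525% to 0.0764% in Control. Slc1a3 and Slc7a1 also had more forward reads in Bcat1-KO (edgeR adjusted p = 0.000623 and 0.0470), but their shares were lower or overlapped. What these reads come from was not tested.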

How the results depend on the processing

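The count of all genes called was 8735, between 7734 and 9330 without 1 library, and 3045 in the test against a 1.5-fold change. Of the transporter genes, 14 were higher and 9 lower, with 9 to 13 higher and 8 to 10 lower without 1 library. In the test against a 1.5-fold change 7 were higher (Slc1a2, Slc1a3, Slc1a5, Slc7a11, Slc38a3 and Slc43a2 among them) and 5 lower (Slc6a17, Slc6a19, Slc7a7, Slc36a1 and Slc43a1), and Bcat1, at -0.41, had an adjusted p of 1 (edgeR), its direction being the same in all alternatives. Among the settings without 1 library, the 9 higher genes came without Bcat1-KO replicate 3. For the 24 transporter genes that the naming rule takes, 427 of 455 values under the 19 alternatives kept their direction and their side of the threshold, 19 fell short of it, 8 newly passed, and 1 turned: Slc7a6 was 0.25 with the local median of 51 genes removed, and the cause was not tested. The rule takes in part the largest changes without overlap, so this share does not describe the other members. Of the called genes outside it, Slc7a4 kept its call in 8 of 19 settings, Slc6a9 in 11, Slc7a1 in 14 and Slc6a19 in 19. Slc6a19 passed the low-count filter through the Control libraries alone, so its count of settings is no support for its difference. The replicate block gave 13 higher and 9 lower genes, losing Slc7a4 alone. Same-numbered libraries deviated with correlations of -0.05, -0.07 and 0.16, and differently numbered ones with correlations between -0.12 and 0.18. With 3 libraries per group these cannot decide whether the numbers pair the samples. The other scalings each moved the median log2 fold change of all genes by -0.01. Depth limits the 6 untested genes, which stayed at or under 0.379 CPM, and Slc3a1, Slc6a13, Slc6a19, Slc7a3 and Slc7a4. TMM scaling shows shares of mRNA, so a change in total RNA per cell would not be seen.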

Other observations

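Amino acid carriers outside the 7 families were called no more often than all tested genes. Of 13 tested genes on that list, 4 were higher and 3 lower in Bcat1-KO, with a median log2 fold change of -0.03 against 0.01 over all tested genes, of which 62.3% were called. Sfxn5, a mitochondrial sideroflexin, had 31.9, 35.1 and 35.8 CPM in the Bcat1-KO libraries, against 12.6, 10.5 and 9.67 CPM in the Control libraries (log2 fold change 1.65 ± 0.10 SE, edgeR adjusted p = 7.18e-08). Slc15a2, the high-affinity peptide carrier of kidney and astrocytes, had 77.3, 72.6 and 69.5 CPM in Bcat1-KO, against 33.5, 33.8 and 35.2 CPM in Control (log2 fold change 1.10 ± 0.07 SE, edgeR adjusted p = 5.59e-08). Slc16a10, the carrier of aromatic amino acids, was low, with 2.08, 1.84 and 1.82 CPM in Bcat1-KO and 0.604, 0.271 and 0.413 CPM in Control (log2 fold change 2.15 ± 0.27 SE, edgeR adjusted p = 3.06e-05). Glmp, the partner of the lysosomal carrier Mfsd1, was lower, with 61.7, 54.3 and 62.8 CPM in Bcat1-KO, against 79.4, 81.2 and 78.4 CPM in Control (log2 fold change -0.42 ± 0.07 SE, edgeR adjusted p = 0.000273), while Mfsd1 did not pass.

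Of 14 tested genes that partner, traffic or regulate these transporters, 7 were higher and 3 lower in Bcat1-KO, with a median log2 fold change of 0.20. The background was 32.0% of genes called higher and 30.3% called lower, and the median over all of them was 0.01. Cd44, a surface glycoprotein known to stabilise xCT in human tumour cells and also on the stem cell marker list, had 173, 152 and 158 CPM in Bcat1-KO, against 15.4, 15.0 and 15.0 CPM in Control (log2 fold change 3.41 ± 0.07 SE, edgeR adjusted p = 9.30e-12). Sgk3, a kinase known to raise the surface level of several carriers, had 29.8, 26.2 and 23.8 CPM in Bcat1-KO, against 1.24, 1.63 and 1.55 CPM in Control (log2 fold change 4.17 ± 0.14 SE, edgeR adjusted p = 3.34e-10). Nedd4l, a ubiquitin ligase known to remove carriers from the membrane, had 17.7, 15.2 and 14.9 CPM in Bcat1-KO, against 4.23, 4.70 and 4.68 CPM in Control (log2 fold change 1.81 ± 0.12 SE, edgeR adjusted p = 9.42e-08). Ggt7, of the gamma-glutamyltransferase family, was lower, with 9.0, 10.7 and 9.63 CPM in Bcat1-KO, against 25.6, 23.0 and 22.4 CPM in Control (log2 fold change -1.28 ± 0.10 SE, edgeR adjusted p = 5.12e-07).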
